A study of Mus musculus with 2 samples.

Results

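Smooth muscle cells and pericytes, together called mural cells, were picked out of single-cell RNA profiles of mouse lung after silica. Members were chosen by their own reads: a cell counted as mural when at least 3 of 7 mural genes had a read. These were Notch3, Higd1b and Cox4i2, here called pericyte genes, and Myh11, Cnn1, Des and Lmod1, which belong to the contractile apparatus of smooth muscle. Cells with reads of more than 3 of 7 genes of activated fibroblasts, or of more than 1 of 4 genes of adventitial fibroblasts, were left out. Cells were kept if 200 or more genes had a read and no more than 25% of their reads were mitochondrial. Of 32445 kept cells, 753 were mural, 2.32%. There were 393 in wild-type (WT) mice and 360 in CCR2-/- mice (CCR2KO).

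Smooth muscle cells wrap arteries, larger veins and airways, and contract through smooth muscle myosin sliding along actin. Pericytes sit inside the basement membrane of capillaries, are held there by PDGF-B made by endothelium acting on the receptor PDGFRB, and tune capillary tone and stability. NOTCH3 receives signals from ligands on endothelium and is needed for mural identity. In scarring lungs, pericytes have been discussed as a source of matrix-making cells. CCR2 is the chemokine receptor through which monocytes leave the marrow and enter injured tissue.

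All mice were C57BL/6 and received 400 mg/kg silica into the trachea, and lungs were taken 3, 7 or 21 days later. Both groups share the silica, and no unexposed lung is among the samples. Enzyme-digested suspensions were tagged with barcoded antibodies and pooled, and 20000 cells were loaded on a BD Rhapsody cartridge. There was 1 library per genotype, so genotype and cartridge cannot be told apart. The WT library held 9 tagged suspensions (tags) and the CCR2KO library 8. The sources used here do not say which day or animal a tag stands for, so days were not compared, and p-values over tags measure spread between suspensions. Neither the age of the mice nor the deleted stretch of Ccr2 is given in the labels.

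A tag held 1648 to 2150 kept cells and 63327246 to 94948946 reads in WT, and 1654 to 2100 cells and 56541715 to 88359317 reads in CCR2KO. Mural cells per tag numbered 33 to 59 in WT and 33 to 57 in CCR2KO. Ccr2, the targeted gene, lay between 52.8 and 100.4 CPM (reads scaled to a common library total) over the kept cells of WT tags and between 1.40 and 4.36 CPM in CCR2KO tags. In mural cells it had 251 reads in 17 of 393 WT cells and 9 reads in 2 of 360 CCR2KO cells. The 2 libraries shared 318 cell numbers over all tagged cells and 0 among mural cells. Median depth was 34252 reads and 1301 detected genes in a mural cell.

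The rule is a count of detected genes, so its edges are described only. Exactly 3 of the 7 genes were detected in 338 members, 4 in 263, 5 in 126, 6 in 26 and all 7 in 0. A further 471 kept cells had reads of exactly 2. Among cells with enough mural genes, 62 members had 3 activated fibroblast genes, and 27 cells with 4 of them were just outside. The rule's genes were high by construction. Myh11 stood at 1022 CPM in mural cells and 6.91 CPM in all other kept cells, and Notch3 at 300.6 and 4.95 CPM.

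The label was checked against genes that the rule did not use. Of 18 other pericyte genes, 16 had a higher mean in mural cells than in fibroblasts of the same tags and 13 were higher in 17 of 17 tags. Of 20 other smooth muscle genes, 19 had a higher mean and 16 were higher in every tag. Both classes were sorted by their own reads, partly on the mural genes, so these comparisons carry no test and are no independent check of the label. The share of all genes that differed in this way was not computed. The 2 pericyte genes and the 1 muscle gene that went the other way by mean level were Kcnj8, Lamc3 and Hhip. Kcnj8, a potassium channel subunit of pericytes, stood at 31.8 ± 28.3 CPM in mural cells and 44.1 ± 11.2 CPM in fibroblasts (SD, n = 17 tags). Hhip, a hedgehog-binding protein known from smooth muscle of peribronchial regions and from fibroblasts, stood at 41.4 ± 47.1 and 69.9 ± 15.6 CPM.

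Among genes of at least 50 CPM in mural cells, those most concentrated there included actins, ion channels and surface enzymes. They were ranked by the ratio of pooled level in mural cells to that in all other kept cells. Actc1, which encodes the actin of heart muscle, led at 848.8 against 2.89 CPM. Aoc3, an amine oxidase on the surface of vascular smooth muscle, stood at 127.9 against 1.22 CPM. Timp4, an inhibitor of matrix proteases, stood at 101.4 against 1.09 CPM, and Adcy5, an adenylyl cyclase, at 74.4 against 0.996 CPM. P2rx1, the ATP-gated channel of arterial smooth muscle, stood at 67.5 against 0.744 CPM. Rgs5 and Vtn, known pericyte genes, also ranked among the first 20, as did Col8a1, a short-chain collagen, at 270.7 against 5.03 CPM. Kcnk3, a background potassium channel of pulmonary artery smooth muscle, stood at 179.2 against 4.10 CPM.

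Mural cells fell between a muscle end and a pericyte end. By the rule's own genes, 390 cells leaned to muscle (3 or more of the 4 muscle genes and at most 1 of Higd1b and Cox4i2), 233 leaned to pericytes (2 or more of the 3 pericyte genes and at most 1 muscle gene), and 130 were mixed. All of the 20 other smooth muscle genes had a higher pooled level at the muscle end, 17 of them in at least 15 of 17 tags. All of the 18 other pericyte genes had a higher pooled level at the pericyte end, 8 of them in at least 15 tags. Median depth was 35526 reads in muscle-leaning and 28288 reads in pericyte-leaning cells. The classes are ranges of a count, and 53 of the mixed cells lie at 2 muscle genes with 1 pericyte gene. Notch3 was not confined to the pericyte end. It had a read in 37.3% of muscle-leaning cells with an Actc1 read and in 35.7% of those without.

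**Figure D1:**
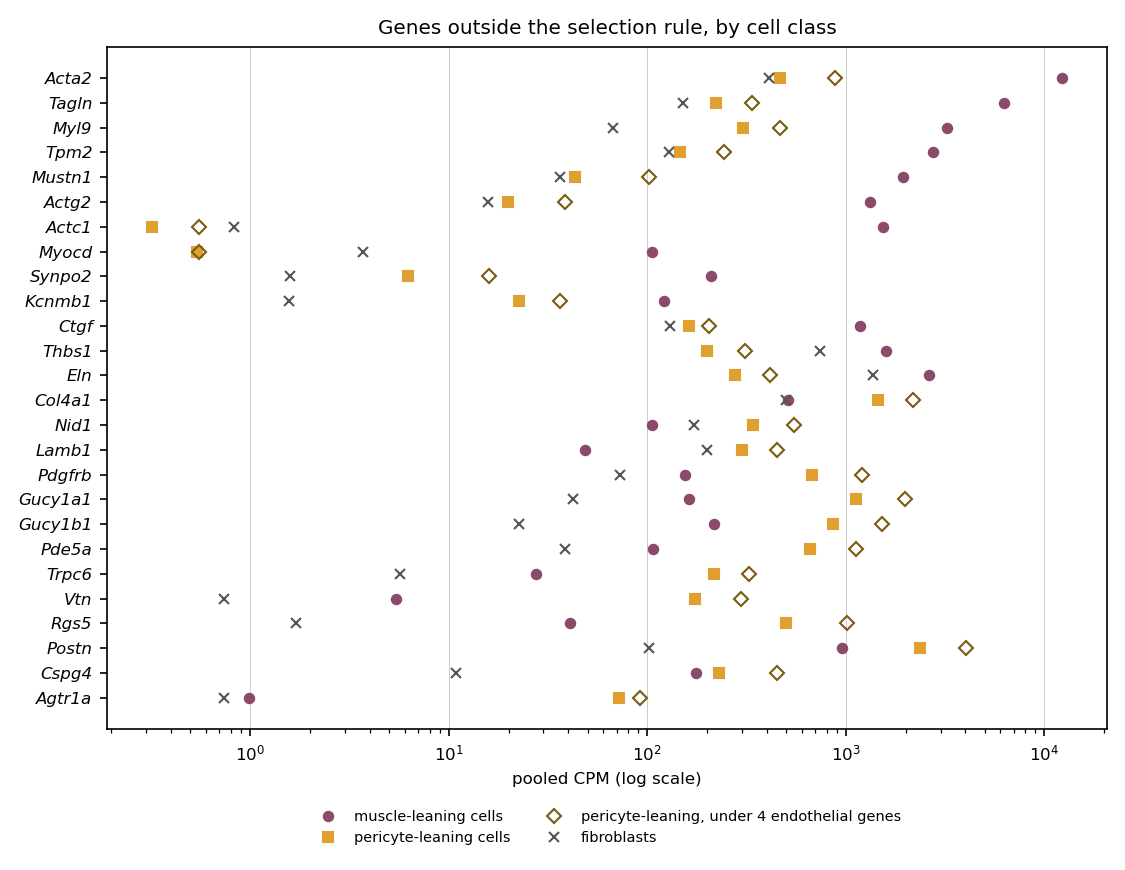
Pooled CPM on a log scale of 26 genes that did not enter the selection rule, in muscle-leaning cells (filled circles), pericyte-leaning cells (squares), pericyte-leaning cells with fewer than 4 endothelial genes (open diamonds) and fibroblasts (crosses). Acta2 lies at 12210 CPM in muscle-leaning and 464 CPM in pericyte-leaning cells, while Gucy1a1 lies at 162 and 1126 CPM.

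At the muscle end the contractile genes stood far above the pericyte end. Acta2, smooth muscle actin, was 26.3-fold higher (12210 against 464 CPM), and Tagln, an actin cross-linker, 28.3-fold higher (6269 against 222 CPM). Both were higher in 17 of 17 tags. Acta2 had a read in 99.2% of muscle-leaning cells and in 36.5% of pericyte-leaning cells, beside 17.2% of immune cells, which should lack it (median depth 32392.5 reads). Myocd, the coactivator that switches on contractile genes, stood at 106.2 CPM at the muscle end and at 0.536 CPM at the pericyte end. Kcnmb1, a subunit of the calcium-gated potassium channel of smooth muscle, was 5.39-fold higher at the muscle end, and Synpo2, an actin-bundling protein, 33.8-fold.

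Actc1 led the genes of the muscle end. It stood at 1541 CPM in muscle-leaning cells, where 60.5% had a read, and at 3 reads in all pericyte-leaning cells together. Of immune cells, 0.957% had a read. Genes of working heart muscle were uneven in the same cells. Myl7 had no read in any mural cell, and Myh6 stood at 0.0613 CPM and Tnni3 at 1.17 CPM in muscle-leaning cells. Tnnt2, cardiac troponin T, stood at 55.6 CPM there, with a read in 5.38% of cells beside 0.222% of immune cells, and had no read in pericyte-leaning cells. The muscle-leaning cells with an Actc1 read (236) held Actg2, enteric smooth muscle actin, at 1605 CPM, and those without (154) at 862.9 CPM. Synpo2 stood at 257.6 and 132.2 CPM and Tnnt2 at 81.6 and 12.7 CPM, whereas Rgs5 stood at 13.5 and 85.8 CPM. Median depth of these cells was 36234 and 34228 reads. Actin genes are near-identical copies, so reads could be split among Actc1, Acta2 and Actg2, and the skeletal copy Acta1 stood at 0.368 CPM in muscle-leaning cells.

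The promoter letters of the muscle genes are shown because contractile genes are known targets of serum response factor, which binds the CArG box, here CC, then 6 letters that are each A or T, then GG. RefSeq promoter windows (GRCm38.p6, 250 bases before to 50 after a gene's start) were matched for 16 of 20 smooth muscle genes, and 2 of these held the box, Actc1 and Myl9. Of 14 matched genes of the 18 in the pericyte list, 1 held it, Trpc6, a calcium entry channel. Among all 27025 genes with a window, 1.81% held one. The reverse strand of a CArG box is again a CArG box, so a search of one strand covers both. The 250 bases before each start follow, with the box in capitals. Actc1 lies at chr2:114052876-114053125 on the minus strand with its box at bases -47 to -38, Myl9 at chr2:156775214-156775463 on the plus strand at -161 to -152, and Trpc6 at chr9:8543892-8544141 on the plus strand at -122 to -113.
Actc1: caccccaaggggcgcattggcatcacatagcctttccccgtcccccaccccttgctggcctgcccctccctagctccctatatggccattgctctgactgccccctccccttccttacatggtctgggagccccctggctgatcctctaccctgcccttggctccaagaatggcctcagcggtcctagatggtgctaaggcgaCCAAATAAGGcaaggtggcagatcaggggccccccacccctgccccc
Myl9: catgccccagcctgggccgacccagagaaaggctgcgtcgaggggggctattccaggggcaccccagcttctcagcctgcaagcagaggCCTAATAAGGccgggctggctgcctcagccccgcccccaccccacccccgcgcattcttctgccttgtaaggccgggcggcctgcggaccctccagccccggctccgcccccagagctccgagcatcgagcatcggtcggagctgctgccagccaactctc
Trpc6: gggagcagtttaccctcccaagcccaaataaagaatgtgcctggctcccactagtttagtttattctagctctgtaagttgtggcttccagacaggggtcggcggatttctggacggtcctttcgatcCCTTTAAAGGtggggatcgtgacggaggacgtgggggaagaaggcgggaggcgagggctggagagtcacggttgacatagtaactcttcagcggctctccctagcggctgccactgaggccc
Myl9, the regulatory light chain of smooth muscle myosin, stood at 3249 CPM at the muscle end and 301.9 CPM at the pericyte end, and Trpc6 at 27.4 and 217 CPM. The 2 boxed muscle genes and the boxed pericyte gene thus lie at opposite ends. A match describes the letters of a window and shows no binding.

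At the pericyte end, receptors and genes of nitric oxide signalling stood higher than at the muscle end. Pdgfrb, the receptor that holds pericytes at capillaries, was 4.37-fold higher (674 against 154 CPM, 17 of 17 tags). Gucy1a1 and Gucy1b1, the subunits of the guanylyl cyclase that senses nitric oxide, stood at 1126 against 162 CPM and at 861 against 217 CPM. Pde5a, the phosphodiesterase that ends the cyclic GMP signal and the target of sildenafil, stood at 660 against 107 CPM, higher in 17 of 17 tags. Vtn, vitronectin, stood at 174 against 5.396 CPM, and Agtr1a, an angiotensin receptor, at 72.3 against 0.981 CPM. Kcnk3, the background potassium channel, stood at 259 against 137 CPM, higher at the pericyte end in 15 of 17 tags. Cspg4, the NG2 proteoglycan often used to pick pericytes, differed little between the ends (229 against 176 CPM, higher at the pericyte end in 10 of 17 tags). Abcc9, a regulator of the potassium channel of pericytes, had 71.3 against 56.4 CPM and split the tags 8 to 9.

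Rgs5, a brake on G protein signalling and a common pericyte marker, was carried by few cells. It had a read in 15.5% of pericyte-leaning, 20.8% of mixed and 3.59% of muscle-leaning cells, and in 0.463% of immune cells. In mural cells of WT tags its lowest, median and highest levels were 12.8, 205 and 744 CPM, and in CCR2KO tags 15.5, 284 and 937 CPM. Tags 5, 7, 8 and 9 of WT and tags 4 and 8 of CCR2KO lay under 100 CPM, so the groups overlapped fully and the spread within each was wide.

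Reads of endothelial genes moved with the pericyte end. Of 10 endothelial genes, at least 4 were detected in 45.1% of pericyte-leaning, 22.3% of mixed and 7.18% of muscle-leaning cells. Their summed level was 5220 CPM in pericyte-leaning and 510 CPM in muscle-leaning cells, beside 2264 CPM in all other kept cells. Without the cells with 4 or more endothelial genes, Pdgfrb stood at 1201 in place of 674 CPM, Gucy1a1 at 1993 in place of 1126 CPM and Postn at 4051 in place of 2364 CPM. Several genes that ranked at the pericyte end went the other way. Dll4, a Notch ligand of endothelium, stood at 52.5 and then 0.553 CPM, Bmp6 at 54.3 and then 8.01 CPM, and Sox18, an endothelial transcription factor, at 71.7 CPM and then at 0 reads. Adcy8, Dlk1, Fam162b, Clstn2 and Agtr1a were among the 12 leading genes of at least 50 CPM with and without those cells. Dlk1 rested on few cells, with a read in 2.58% of pericyte-leaning cells and a higher level at that end in 5 of 17 tags. Clstn2, a calsyntenin, stood at 229 CPM in pericyte-leaning and 285 CPM in those with few endothelial genes, beside 2.15 CPM at the muscle end. Marker sums of other classes were higher in the pericyte-leaning cells with few endothelial genes than in all pericyte-leaning cells. The epithelial sum was 11987 in place of 7197 CPM, and the immune sum 2749 in place of 1431 CPM. Scrublet called 5 mural cells as doublets, all muscle-leaning.

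Targets of Notch stood high in mural cells. Heyl and Nrarp, a transcription factor and a feedback inhibitor that Notch switches on, were higher in mural cells than in fibroblasts in 17 of 17 tags. Heyl stood at 166 ± 90.4 CPM against 37.5 ± 9.82 CPM (SD, n = 17 tags), and Nrarp at 65.9 ± 44.8 against 5.46 ± 3.13 CPM. Hey2, another target, stood at 40.2 ± 31.95 against 1.04 ± 0.955 CPM and was higher in 16 of 17 tags. All 14 listed Notch genes had a higher mean in mural cells than in fibroblasts, and all 10 endothelial markers did too, a class that expresses several Notch genes. The share of all genes with a higher mean in mural cells was not computed. Hey2 and Heyl lay alike at both ends of the mural range (41.8 and 41.4 CPM, and 151 and 150 CPM at the muscle and pericyte ends). Nrarp was 17.2 CPM at the muscle end and 108 CPM at the pericyte end, and 139 CPM in pericyte-leaning cells with few endothelial genes.

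Among ligands and receptors of the vessel wall, Pdgfa, which signals to fibroblasts, stood at 205 ± 86.9 CPM in mural cells and 45.4 ± 13.0 CPM in fibroblasts, higher in every tag. Pdgfra, the receptor it binds, went the other way, at 37.8 ± 36.2 against 319 ± 82.6 CPM, but it helped define the fibroblasts. Angpt2, which loosens contacts between endothelium and pericytes, stood at 130 CPM at the muscle end and 44.6 CPM at the pericyte end. Angpt1, its counterpart that steadies them, stood at 39.4 and 147 CPM. Ednra, the endothelin receptor that constricts vessels, stood at 115 and 188 CPM. Epas1, the hypoxia-response factor HIF-2 alpha, was 927 ± 276 CPM in mural cells and 222 ± 54.5 CPM in fibroblasts. Tgfb2, a TGF-beta ligand, stood at 130 ± 65.5 against 22.4 ± 7.21 CPM, and Tgfbr2, the receptor, at 126 ± 68.4 against 372 ± 59.9 CPM, lower in every tag.

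Listed matrix genes differed between mural cells and fibroblasts, mostly lower in mural cells in the interstitial list and mixed in the basement membrane list. The share of all genes that differed in every tag was not computed, so the counts below only describe these lists. Of 35 interstitial matrix genes, 31 had a lower mean in mural cells and 13 were lower in 17 of 17 tags. Of 19 basement membrane genes, 12 had a higher mean in mural cells, and Col4a1, Col4a2 and Col18a1 were higher in every tag. Col1a1, the main fibrillar collagen, ran from 377 to 1401 CPM in mural cells and from 1337 to 3319 CPM in fibroblasts. Dcn, a collagen-binding proteoglycan, stood at 158 ± 147 against 1433 ± 373 CPM, and Mgp, which keeps matrix from calcifying, at 7990 ± 1797 against 24818 ± 3036 CPM. Col18a1, the precursor of endostatin, stood at 548 ± 160 CPM against 83.8 ± 19.6 CPM.

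**Figure D2:**
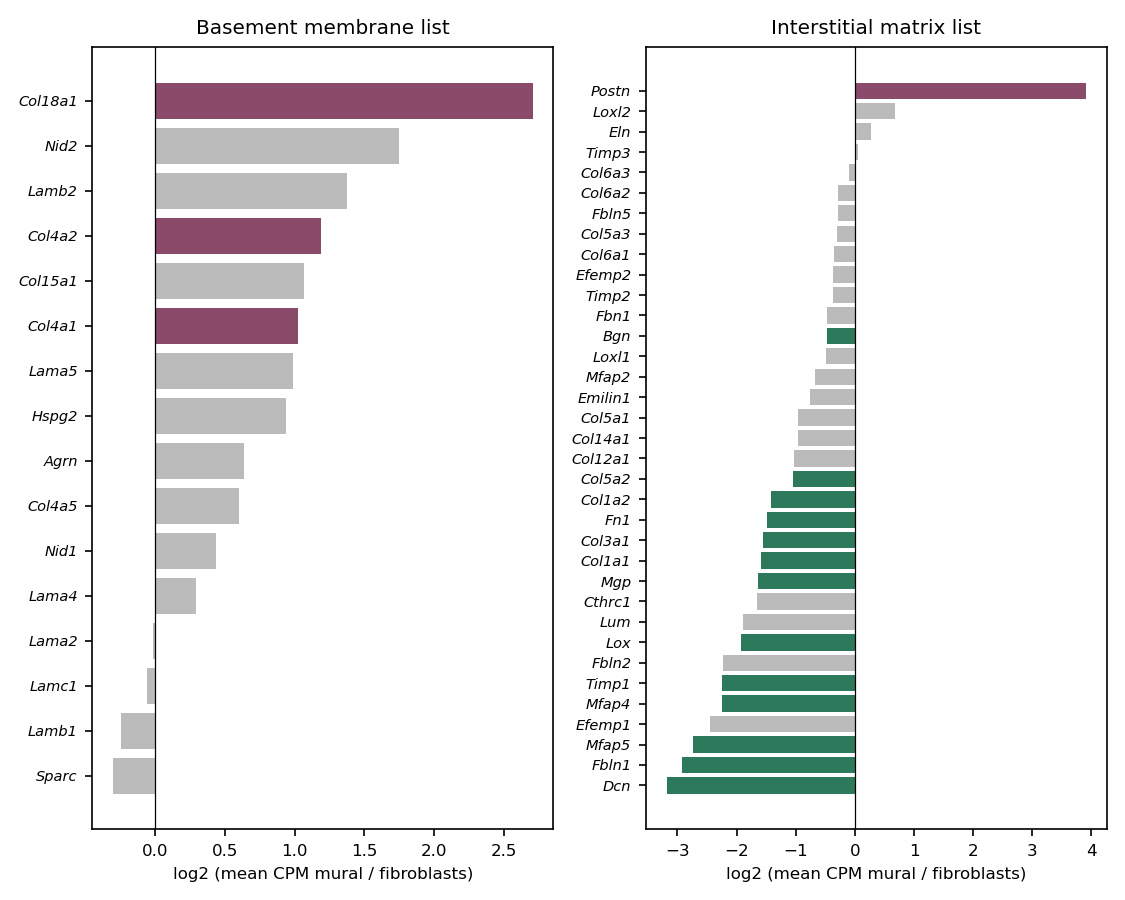
Log2 ratio of the mean CPM over 17 tags in mural cells to that in fibroblasts, for the 16 basement membrane and 35 interstitial matrix genes that reach 20 CPM in either class. Purple bars are higher in mural cells in every tag, green bars higher in fibroblasts in every tag and grey bars neither. Postn stands out on the mural side and Dcn lies at the other extreme.

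Of the 4 interstitial genes with a higher mean in mural cells (Postn, Loxl2, Eln and Timp3), Postn alone was higher in every tag. Postn, a matricellular protein often read as a sign of myofibroblasts, ran from 1022 to 2289 CPM in mural cells and from 32.1 to 203 CPM in fibroblasts, 15.02-fold by means. It had a read in 90.1% of pericyte-leaning and 61.3% of muscle-leaning cells, beside 17.2% of fibroblasts and 5.70% of immune cells. No tag of either genotype brought mural cells and fibroblasts into overlap.

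Within the mural range matrix genes differed too. Col4a1 and Col4a2, the chains of the common basement membrane collagen, stood at 1454 against 509 CPM and at 950 against 318 CPM at the pericyte and muscle ends. Nid1 and Lamb1, a linker and a laminin chain, also stood higher at the pericyte end in 17 of 17 tags. Col4a5 and Col18a1 stood higher at the muscle end in 17 of 17 tags (140 against 10.4 CPM and 808 against 198 CPM). Eln, the elastin of arteries, stood at 2631 against 276 CPM. Thbs1, an activator of latent TGF-beta, stood at 1589 against 200 CPM, and Ctgf, a matricellular protein induced by TGF-beta and by YAP, at 1181 against 162 CPM. All of these were higher at the muscle end in every tag.

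Elastin varied widely between tags. In WT it was lowest in tag 2 at 648 CPM, with a median of 1318 and a highest value of 4790 CPM in tag 5, and tags 4 and 6 were next at 2631 and 3885 CPM. In CCR2KO it ran from 914 to 2250 CPM with a median of 1302. The 3 highest levels all came from WT tags, yet the groups overlapped (log2 change -0.50, SE 0.33, edgeR adjusted p = 0.999). Serpine2, a protease inhibitor, ran from 166 to 1109 CPM in WT with its 3 lowest values in tags 7, 8 and 9, and from 277 to 896 CPM in CCR2KO.

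Of 29 listed inflammatory genes, 24 had a lower mean in mural cells than in fibroblasts. Of the 29, 9 were lower in 17 of 17 tags, among them Il6, Il33, C3 and Saa3. The share of all genes that did so was not computed, so these counts only describe the list. Il6 stood at 177 ± 123 against 575 ± 192 CPM. The fibroblasts also held more reads of other classes, with a higher mean for all 11 epithelial and 9 of 12 immune markers. Scgb1a1 stood at 186 CPM in mural cells and 10524 CPM in fibroblasts, and Lyz2 at 949 and 3250 CPM. The part of such reads in the inflammatory difference was not tested. Ccl19, a chemokine that draws T cells and dendritic cells, was the one listed gene higher in mural cells in every tag (104 ± 47.4 against 30.7 ± 13.3 CPM). It lay mostly at the muscle end, at 140 against 26.4 CPM, in 17 of 17 tags. Saa3, an acute-phase apolipoprotein abundant in fibroblasts, stood at 2419 CPM at the pericyte end and 165 CPM at the muscle end, with reads in 45.9% and 43.6% of cells. It also had a read in 53.0% of immune cells. The share of cells with a Saa3 read was alike at both ends, while the level differed.

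Whether the knockout changed how many mural cells were recovered was asked over tags. In WT the share of mural cells among kept cells had a lowest, median and highest value of 1.70, 2.01 and 3.58%. In CCR2KO these were 1.74, 2.19 and 3.45%. Tag 7 was highest in both groups, and the groups overlapped over nearly their whole range. The means were 2.31 ± 0.697% (n = 9) and 2.39 ± 0.558% (n = 8), with a two-sided exact permutation p = 0.819 (Benjamini-Hochberg 0.819 over 2 shares). The sign of this small difference turned when 4 mural genes were required. CCR2KO had the higher share in 7 of 8 same-numbered tags, though the sources used here do not say that the numbers are paired. As a part of mural cells and fibroblasts together, the share was 10.4% in WT and 9.67% in CCR2KO.

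**Figure D3:**
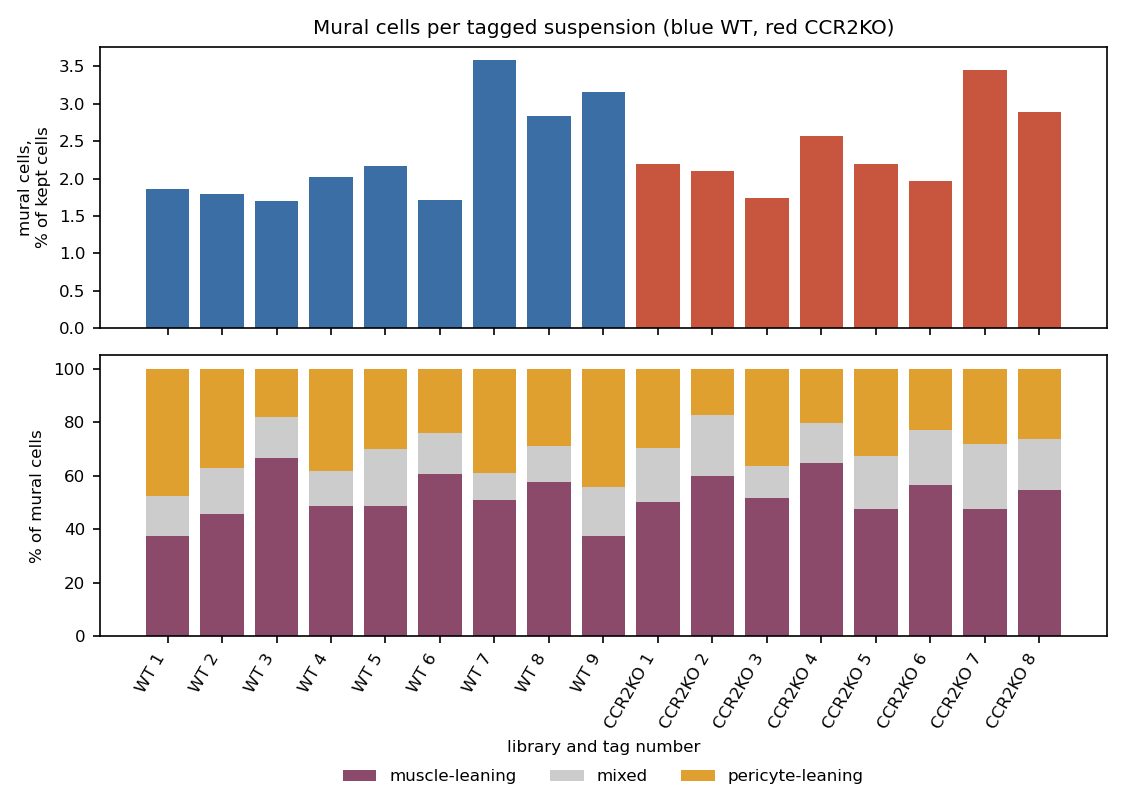
Mural cells as a percentage of kept cells (upper) and their split into muscle-leaning, mixed and pericyte-leaning cells (lower), 1 bar per tag. WT tags (blue) run from 1.70 to 3.58% and CCR2KO tags (red) from 1.74 to 3.45%.

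The pericyte-leaning share of mural cells was 34.2 ± 9.51% in WT (18.2 to 47.5%, median 37.1) and 26.7 ± 6.27% in CCR2KO (17.5 to 36.4%, median 27.2). The highest values came from WT tags 1 and 9, and the lowest from CCR2KO tag 2 and WT tag 3. The difference did not pass (exact permutation p = 0.0804, adjusted 0.161, n = 9 and 8). It passed unadjusted when 4 mural genes were required (20.3 against 12.4%, exact permutation p = 0.0157) and with a stricter cell filter (37.2 against 26.2%, exact permutation p = 0.0380). It also passed without WT tag 3 (exact permutation p = 0.0204), WT tag 6 (0.0491) or CCR2KO tag 3 (0.0475).

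Detected genes and endothelial reads moved with genotype in the same cells, while the median reads per mural cell were 33573 ± 5836 in WT and 33702 ± 5343 in CCR2KO (SD over 9 and 8 tags). WT mural cells had a median of 1391 ± 186 detected genes per tag and CCR2KO cells 1200 ± 142 (exact permutation p = 0.0346, n = 9 and 8). With cells thinned to 5000 reads the mean values were 952 ± 44.7 and 856 ± 53.8 (exact permutation p = 0.00210, n = 9 and 8). Shallower cells were left out, 0 of 393 mural cells in WT and 3 of 360 in CCR2KO. At least 4 endothelial genes were detected in 25.1 ± 8.76% of WT and 16.1 ± 5.34% of CCR2KO mural cells (exact permutation p = 0.0273, n = 9 and 8). In pericyte-leaning cells the median depth was 36440 reads in WT and 24067 reads in CCR2KO, and in muscle-leaning cells 34678 and 36201 reads. The part of these in the pericyte-leaning share was not tested. Without cells with 4 or more endothelial genes, that share did not pass either.

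For expression, reads were summed over the mural cells of a tag and the genotypes were compared with edgeR's quasi-likelihood test over 9126 genes. Only 7 genes passed a Benjamini-Hochberg adjusted p of 0.05, 0.0767% of those tested, with 1 higher in CCR2KO (0.011%) and 6 lower (0.0657%). At an unadjusted 0.05, 439 genes (4.81%) would pass. On simulated tags of this size and spread the test recovered 5.81% of 2-fold and 27.1% of 4-fold changes.

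Hspa1b, a heat-inducible chaperone, was the gene that rose. Its lowest, median and highest levels were 21.5, 52.2 and 81.8 CPM in WT and 65.6, 170 and 217 CPM in CCR2KO. Every CCR2KO tag except tag 8 lay above every WT tag (log2 change 1.70, SE 0.32, edgeR adjusted p = 0.0330). The call held in 7 of 17 fits with 1 tag left out. It was lost without WT tag 1, 3, 4, 5 or 8 or without CCR2KO tag 1, 2, 4, 6 or 7, with adjusted p up to 0.116 and log2 changes from 1.60 to 1.83. Hspa1a, a near-identical copy between which reads could be split, had a log2 change of 1.19 (adjusted p = 0.378). In muscle-leaning cells alone it passed at 1.69 (edgeR adjusted p = 0.0442), and it passed with DESeq2 (adjusted p = 0.0214). The summed level of 21 immediate early and heat genes was 10825 ± 1771 CPM in WT and 12647 ± 2700 CPM in CCR2KO, and its part in the result was not tested.

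The 6 genes that fell were 3 entries of ribosomal RNA (Rn45s, Rn18s and Rn28s1), Rps29, Cd99 and Tmsb10. Cd99 encodes a surface protein at which leukocytes cross endothelium. It ran from 412 to 610 CPM in WT with a median of 524, and from 81.0 to 325 CPM in CCR2KO with a median of 224. The groups did not overlap (log2 change -1.26, SE 0.21, edgeR adjusted p = 0.00542). Rps29, a protein of the small ribosomal subunit, ran from 1340 to 1802 CPM and from 761 to 1110 CPM, again without overlap (log2 change -0.72, SE 0.12, adjusted p = 0.00542). Tmsb10, a thymosin that binds actin monomers, ran from 1683 to 2596 CPM and from 1108 to 1904 CPM, with 7 of 8 CCR2KO tags under every WT tag (log2 change -0.59, SE 0.12, adjusted p = 0.0495). Of the 17 fits with 1 tag left out, Tmsb10 kept its call in 3, those without WT tag 4, WT tag 6 or CCR2KO tag 6. Rn45s, the ribosomal precursor, ran from 4867 to 6700 CPM and from 3343 to 3907 CPM, a log2 change of -0.67 (SE 0.09; adjusted p = 0.000485). Rn18s and Rn28s1 also separated the groups fully. With the ribosomal RNA entries left out of the table, Rps29 and Cd99 still passed and Tmsb10 and Hspa1b did not. Cd99 did not pass when 4 mural genes were required (adjusted p = 0.577). Rps29 did not pass without cells rich in endothelial genes (adjusted p = 0.299) or with cells scaled to the same total and limma (adjusted p = 0.200), and none of the 7 passed in pericyte-leaning cells alone.

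**Figure D4:**
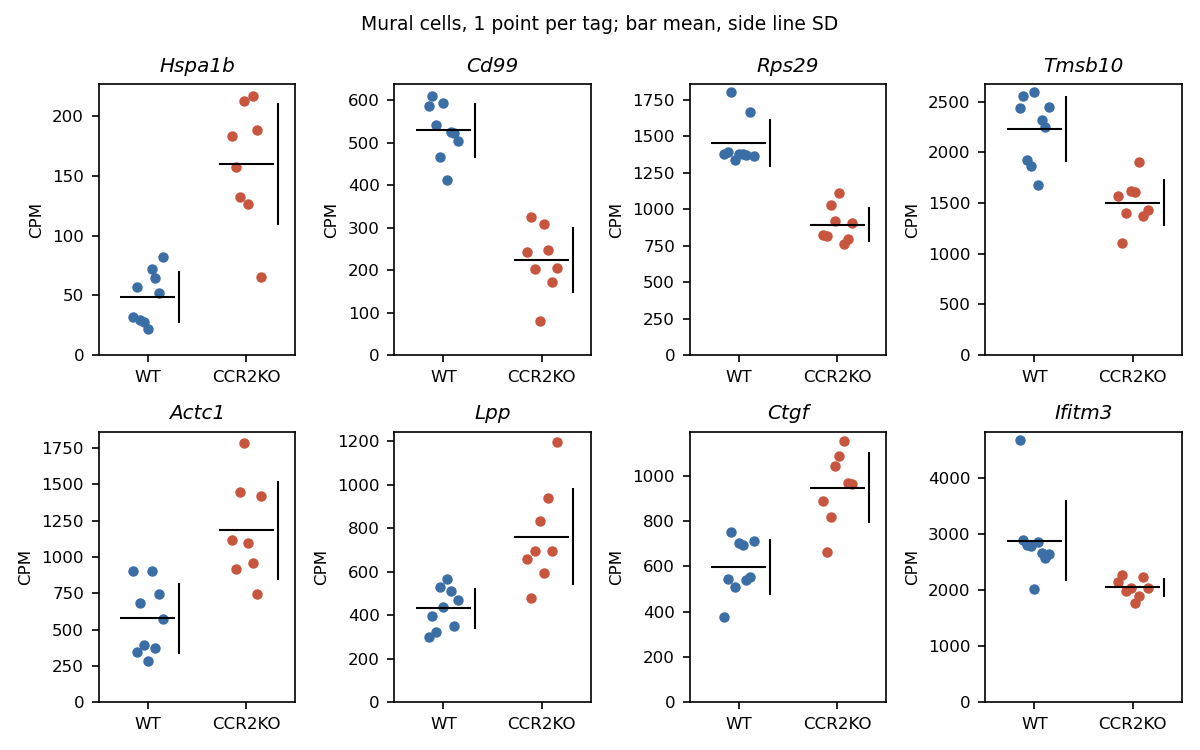
CPM in mural cells of 4 genes that passed (Hspa1b, Cd99, Rps29, Tmsb10) and 4 that did not (Actc1, Lpp, Ctgf, Ifitm3), with 1 point per tag, the mean as a horizontal bar and the SD as a vertical line beside it. The 8 CCR2KO points of Cd99 all lie under the lowest WT point of 412 CPM.

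The fibroblasts of the same tags showed the same calls. Of the 7 genes, 6 passed in the same direction among 6772 fibroblasts, where 414 of 15971 genes passed (2.59%), and Hspa1b did not (log2 change 0.68, adjusted p = 0.243). The difference between the cell classes was tested as an interaction with the tag as a block. None of 15121 genes passed (0.0%), the smallest adjusted p was 1.00, and 636 (4.21%) had an unadjusted p under 0.05. For Hspa1b the interaction was 1.17 on the log2 scale with adjusted p = 1.00. No genotype difference can thus be called particular to mural cells here. Of the fibroblasts, 4270 had no read of Epcam, Ptprc or Pecam1, and with these alone the interaction again called 0 genes.

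Below the threshold, the next genes higher in CCR2KO included muscle genes. Actc1 ran from 283 to 906 CPM in WT with a median of 574, and from 748 to 1786 CPM in CCR2KO with a median of 1105. Every CCR2KO tag except tag 7 lay above every WT tag (log2 change 1.02, SE 0.23, edgeR adjusted p = 0.133). Lpp, an adaptor of focal adhesions in smooth muscle, ran from 300.0 to 569 and from 482 to 1199 CPM, and its log2 change was 0.80 (SE 0.18; adjusted p = 0.133). Ctgf ran from 378 to 752 and from 663 to 1155 CPM, a log2 change of 0.64 (SE 0.15; adjusted p = 0.165). In 7 of 8 CCR2KO tags both lay above every WT tag. Igha, the constant region of immunoglobulin A made by plasma cells, ran from 0 to 5.06 CPM and from 9.25 to 127 CPM without overlap (log2 change 4.22, adjusted p = 0.111). In fibroblasts of the same tags its log2 change was 9.46 (edgeR adjusted p = 4.28e-05). DESeq2, another count model, did pass Actc1 (adjusted p = 0.00152), Lpp (0.00159) and Ctgf (0.00284). With the stricter cell filter, edgeR passed Actc1 (adjusted p = 0.0477) and Lpp (0.0427) too.

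As lists, smooth muscle genes leaned higher and interferon genes lower in CCR2KO, with no member of either past the threshold. Of 19 smooth muscle genes tested, 17 had a positive log2 change, 0 passed and 4 had an unadjusted p under 0.05, all higher, beside 2.2% of all genes. The median log2 change was 0.31, against -0.01 over all genes tested. Cald1, an actin-binding regulator of contraction, ran from 998 to 1678 CPM in WT and from 1703 to 2116 CPM in CCR2KO without overlap (log2 change 0.45, SE 0.11, adjusted p = 0.181). Tagln had 0.35 (adjusted p = 0.903) and Acta2 0.31 (adjusted p = 0.999). In fibroblasts of the same tags Acta2 (log2 change 0.87, edgeR adjusted p = 0.0309) and Cald1 (0.33, adjusted p = 0.0184) passed, higher in CCR2KO. Actg2 did not pass there (0.79, adjusted p = 0.456). The muscle-leaning share of mural cells was 50.4 ± 9.92% in WT and 54.0 ± 6.18% in CCR2KO. In muscle-leaning cells alone the log2 change was 0.76 for Actc1 (edgeR adjusted p = 0.636) and 0.27 for Cald1 (adjusted p = 1.00). The 18 pericyte genes had a median of -0.11, with 0 at an unadjusted p under 0.05.

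Of 26 interferon response genes tested, 25 had a negative log2 change and the median was -1.03. None passed, and 13 had an unadjusted p under 0.05, all lower, beside 2.61% of all genes. Ifitm3, a membrane protein that blocks virus entry, ran from 2027 to 4688 CPM in WT and from 1784 to 2271 CPM in CCR2KO (log2 change -0.50, SE 0.12, edgeR adjusted p = 0.169). Bst2, tetherin, ran from 332 to 914 and from 159 to 515 CPM, a log2 change of -0.77 (SE 0.22; adjusted p = 0.375). Ifit3 ran from 1.90 to 302.9 and from 0 to 59.6 CPM, a log2 change of -2.69 (SE 0.86; adjusted p = 0.504). WT tag 1 was the highest WT tag for all of these, and the groups overlapped. In fibroblasts of the same tags Ifitm3 passed with a log2 change of -0.43 (edgeR adjusted p = 0.000503). Bst2 at -0.76 (adjusted p = 0.143) and Ifit3 at -1.23 (adjusted p = 0.0555) did not pass there. Other list members also passed in fibroblasts, among them Isg15 at -1.57 (edgeR adjusted p = 0.00740) and Ifit1 at -1.20 (adjusted p = 0.0211). Irf7 at -1.30 (adjusted p = 0.114) and Ifit2 at -0.71 (adjusted p = 0.196) did not, and the whole list was not counted there.

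The summed interferon list was 5866 ± 1612 CPM in WT and 3491 ± 735 CPM in CCR2KO. Among 12 antigen presentation genes tested, 11 had a negative change and 2 an unadjusted p under 0.05, both lower, beside 2.61% of all genes. B2m, the light chain of MHC class I, ran from 3296 to 8333 and from 2084 to 5598 CPM, a log2 change of -0.63 (SE 0.18; adjusted p = 0.380). Both lists stood higher at the pericyte end than at the muscle end. The interferon sum was 6108 against 3556 CPM, and the antigen presentation sum 10862 against 3939 CPM. In pericyte-leaning cells with fewer than 4 endothelial genes these sums were 6715 and 7931 CPM. Pericyte-leaning cells made up 34.2% of mural cells in WT and 26.7% in CCR2KO, and their part in these differences was not tested. Cxcl9, a chemokine induced by interferon gamma, was too low for the test. It stood at 345, 231 and 1308 CPM in WT tags 1, 2 and 3 and at 137 CPM in WT tag 5. The other WT tags and all CCR2KO tags lay at or under 38.0 CPM, with 2 and 4 tags at 0.

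**Figure D5:**
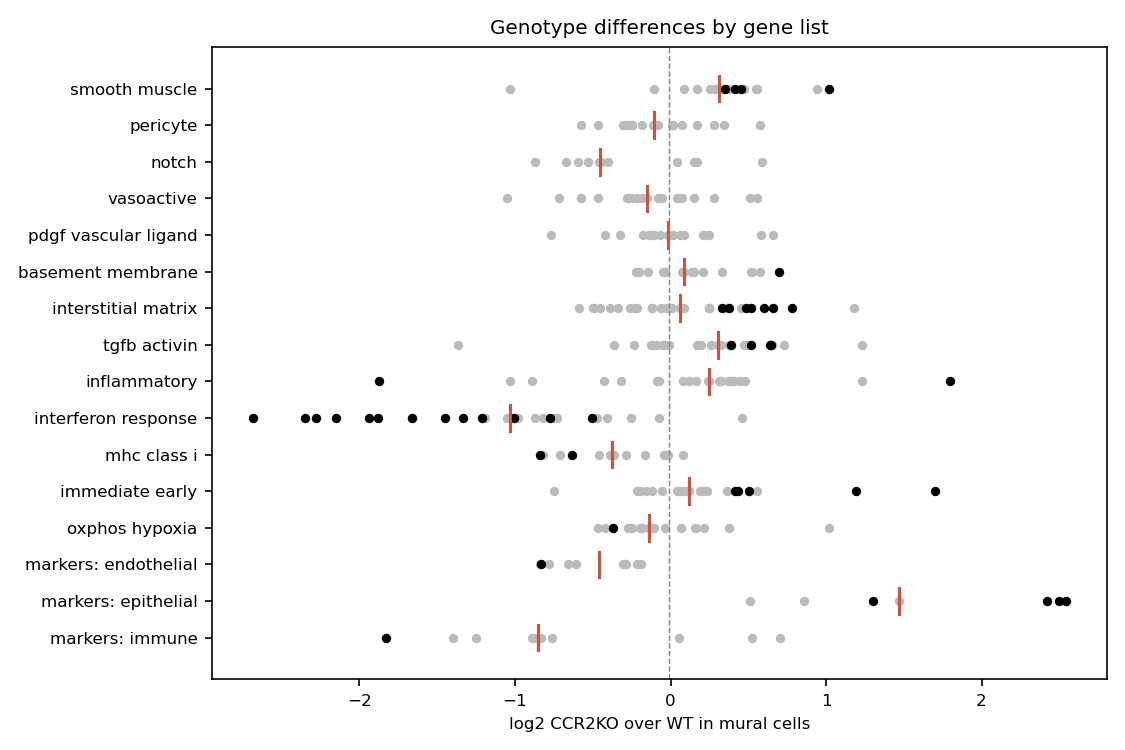
Log2 change (CCR2KO over WT) in mural cells of every tested member of 16 lists, 1 point per gene. Black points have an unadjusted p under 0.05, red bars are list medians and the dashed line is the median of all genes at -0.01. The interferon list lies to the left with a median of -1.03, and the epithelial markers to the right with 1.47.

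Markers of other cells moved with genotype too. All 7 epithelial genes tested had a positive change with a median of 1.47, and their sum ran from 275 to 10695 CPM in WT and from 1348 to 18653 CPM in CCR2KO. Scgb1a1 had a log2 change of 1.30 (SE 0.31, edgeR adjusted p = 0.169). All 10 endothelial genes had a negative change (median -0.46), with sums from 401 to 3573 CPM and from 1157 to 2317 CPM. Of 10 immune genes 7 had a negative change (median -0.85), with sums from 324 to 4898 CPM and from 315 to 4447 CPM, and none of these markers passed. Their part in the genotype differences above was not tested.

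Matrix, Notch and vasoactive genes showed no call. Of 32 interstitial matrix genes tested 0 passed, and 7 had an unadjusted p under 0.05, all higher in CCR2KO, beside 2.2% of all genes. Fbn1, the fibrillin of elastic fibres, had a log2 change of 0.78 (SE 0.23, adjusted p = 0.380), and Timp3, a protease inhibitor bound to matrix, 0.49 (SE 0.15, adjusted p = 0.449). Of 27 TGF-beta and activin genes 0 passed and 4 had an unadjusted p under 0.05, all higher, beside the same 2.2%, Ctgf and Thbs1 among them. The medians were 0.06 and 0.30. The 12 Notch genes had a median of -0.45 and the 21 vasoactive genes of -0.15, with 0 members of either at an unadjusted p under 0.05. Postn differed by 0.01 on the log2 scale (SE 0.16, adjusted p = 0.999), so its high level in mural cells was found in both genotypes.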

How the data were processed

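Single-cell read counts per gene and cell, deposited by the authors for 1 library per genotype, were used as deposited. The values are whole reads, not molecules, since in mural cells the median nonzero entry was 11 and 20.0% equalled 1. The submitters' processing notes name cutadapt 2.10, Bowtie2 2.4.2, R 3.6.3 and GRCm38, and the counting rule is not given in the sources used here. Columns called doublet or without a tag (1213) were not used.

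Kept cells had at least 200 genes and at most 25% mitochondrial reads. The mural rule, the classes and all gene lists were chosen with earlier results of these data known. Named genes were the called genes, the next by p, the 12 leading genes of each end, the 20 leading mural genes and list members. Scrublet (Scanpy 1.11.5) marked 2.15% and 2.21% of cells, which stayed in.

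Reads of mural cells were summed per tag and tested with edgeR 4.0.16 (TMM, filterByExpr, quasi-likelihood, Benjamini-Hochberg 0.05), 9 WT against 8 CCR2KO tags. Levels are pooled or per-tag CPM without a length correction, so genes are not compared by level. Shares were tested by two-sided exact permutation over tags, whose smallest p is 4.11353e-05. With the replicate block they were tested by exact sign flips of the paired differences. The fits were tested on simulated data. DESeq2 1.42.0, limma 3.58.1, other filters and leaving out each tag were alternatives. Fibroblasts were chosen by their own genes, so those genes are no result. Counts of list genes above or below their level in fibroblasts stand without the share over all genes, which was not computed.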

Additional observations from a re-analysis of the deposited data

Results flagged for a closer look

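Among 120 groups of tags examined, 16 held a tag far from the others of its group, where the critical values used are set so that chance flags about 1 in 20. That rate was not measured for these CPM values. Values are CPM in mural cells, with the nearest other tag in brackets. WT tag 1 stood apart for Gucy1a1 at 1502 (769), for Ifitm3 at 4688 (2905) and for the Schwann cell marker sum at 315 (146). WT tag 3 stood apart for Cxcl9 at 1308 (345) and for the mesothelial marker sum at 38.2 (8.88). WT tag 2 did so for the epithelial marker sum at 10695 (4645), WT tag 6 for Cxcl12 at 712 (393) and WT tag 8 for the erythroid marker sum at 13.3 (5.75).

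In CCR2KO, tag 4 stood apart for Actg2 at 1551 (956), Saa3 at 1452 (509) and Igha at 127 (57.4). Tag 6 did so for Cxcl9 at 38.0 (3.12) and for the mesothelial marker sum at 374 (78.1). Tag 2 stood apart for Lcn2, a secreted iron-carrier binding protein, at 3328 (633). Tag 1 stood apart for the vasoactive list at 5358 (4439), and tag 8 for the oxidative and hypoxia list at 5771 (5245).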

How the results depend on the processing

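The mural share of kept cells differed by 0.0711 percentage points (CCR2KO minus WT). The difference was -0.0102 with 4 or more mural genes and -0.718 as a share of mural cells and fibroblasts. It ran from -0.0804 to 0.229 with 1 tag left out. The pericyte-leaning share differed by -7.45 points. It passed unadjusted at -7.95 (exact permutation p = 0.0157) with 4 or more mural genes and at -11.0 (exact permutation p = 0.0380) with the stricter cell filter. With 1 tag left out it ran from -9.45 to -5.79. The 7 called genes became 47 with DESeq2 (all 7 among them), 4 with 4 or more mural genes, 0 with pericyte-leaning cells alone and 4 with cells scaled to the same total and limma. The count was 4 without cells with 4 or more endothelial genes and 2 without ribosomal RNA genes, both chosen after seeing the data. With 1 tag left out it ran from 5 to 7. The interaction called 0 genes under each alternative run, also with 1 tag left out. For single genes 1 value reversed, Hspa1a at -0.10 with pericyte-leaning cells alone, and the cause was not tested. The same gene passed in muscle-leaning cells alone at 1.69. By expression, tag numbers did not pair the libraries: correlations of same-numbered tags ran from -0.0437 to 0.115, 1 of 8 over 0.1. The mural share was higher in CCR2KO in 7 of 8 same-numbered tags. With the number as a replicate block it differed by 0.176 points (exact sign-flip test on paired differences, p = 0.0703). The block gave 6 called genes (5 shared, with B2m added), and a pericyte-leaning difference of -6.22.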
